A study of Arabidopsis thaliana with 8 samples.

Results

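The comparison described here set inflorescence stems of fah-1, a line labelled as a loss-of-function mutant of ferulate/coniferaldehyde 5-hydroxylase (F5H), against wild-type (WT) stems of Arabidopsis thaliana. Its members were the arrays whose titles carry these names, 2 of fah-1 and 3 of WT, or 5 of the 8 arrays of the series, and all 22746 probe sets that were not array controls, of 22810. Both groups were of ecotype Columbia-0 and 1.5 months old, and each sample pooled the stems of 5 plants. The other 3 arrays came from a line labelled as overexpressing F5H (F5H-OE), in the same ecotype and at the same age. The labels give neither the origin of the fah-1 line and its number of outcrosses nor the promoter behind the overexpression. The question of the comparison was which transcripts differ in a stem that lacks working F5H.

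F5H is a cytochrome P450 enzyme that hydroxylates coniferaldehyde and related compounds on the way to sinapyl alcohol, the precursor of syringyl units in lignin. Plants without it make lignin almost wholly of guaiacyl units, and they lack sinapate esters such as sinapoylmalate, which screens leaves from ultraviolet light. Lignin is laid down together with cellulose and xylan in the secondary walls of xylem vessels and of the fibres between vascular bundles, and these cells make up much of a mature inflorescence stem.

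The arrays of both groups were close to each other. Median intensity was 112 and 113 in fah-1 and 113 to 116 in WT. Precision was limited by how few arrays there were. Log2 values of the fah-1 pair correlated at 0.997, and those of the WT arrays at 0.994 to 0.995 on average. For GAPDH, the control that reports RNA integrity, signal at the 3′ end exceeded that at the 5′ end by 0.79 and 0.71 on the log2 scale in fah-1, and by 0.72, 0.63 and 0.51 in WT. In the F5H-OE arrays, which also enter the SEs and p-values below, the excess was 1.47, 0.85 and 0.70, the largest being that of replicate 1. The annotation used names F5H on none of the probe sets, and 8730 probe sets are not listed in it. Which probe set, if any, measures the targeted transcript could not be told by name, so the labels were not checked by it. CYP84A4, a cytochrome P450 of the same subfamily, averaged 8.08 log2 intensity in both groups. Of the tissue markers listed, 2 could be named. The phloem sugar transporter SWEET11 had a log2 fold change of 0.08 ± 0.87 (SE; fah-1 over WT, as throughout), with WT arrays spread from 8.29 to 9.84 log2 intensity. Its SE, like all others here, comes from all 8 arrays, and the F5H-OE arrays spread wider, from 5.88 to 9.17. RCA, which activates Rubisco in photosynthetic tissue, had a log2 fold change of 0.01 ± 0.08, at 13.40 and 13.31 log2 intensity in fah-1. No marker of xylem vessels, cambium, epidermis, flowers or roots had a named probe set, and the part of tissue composition in the values below was not tested. In pooled stems, fewer cells of a type and less RNA per cell cannot be told apart.

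Transcript levels in fah-1 stems were very near those in WT stems, and 2 probe sets passed the threshold, both lower in fah-1. They were 253088_at, which has no gene name in the annotation used, and QQS (AT3G30720), an orphan gene found in Arabidopsis thaliana alone that is known for shifting carbon and nitrogen between starch and protein. These 2 are 0.00879% of the 22746 probe sets (limma, adjusted p under 0.05). Without any 1 of the WT arrays, without fah-1 replicate 2, or with a robust estimate of the spread, 253088_at alone passed.

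The 253088_at probe set had intensities of 198 and 258 in the fah-1 arrays, against 2212, 2080 and 1947 in the WT arrays. The fah-1 values lay far below every WT value, and the groups did not come near each other. The means were 228 ± 42.5 in fah-1 (SD, n = 2) and 2080 ± 133 in WT (SD, n = 3), a level 9.20-fold lower in fah-1. The log2 fold change was -3.20 ± 0.12 (SE), with an adjusted p of 6.0e-05 by limma. In the F5H-OE line the same probe set stood above WT instead, at 15433, 14698 and 15006. The fah-1 minus F5H-OE difference was -6.06 on the log2 scale (limma, adjusted p = 3.3e-07), and F5H-OE minus WT was 2.86 (adjusted p = 7.7e-06). The WT arrays thus lay between the other lines for this probe set.

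QQS had intensities of 336 and 181 in fah-1, against 1747, 1696 and 1873 in WT. Its WT arrays were tightly grouped, and both fah-1 arrays lay below all of them, although the fah-1 arrays stood apart from each other, at 8.39 and 7.50 log2 intensity. The means were 259 ± 110 in fah-1 (SD, n = 2) and 1772 ± 91.4 in WT (SD, n = 3), a level 7.18-fold lower in fah-1. The log2 fold change was -2.84 ± 0.25 (SE), with an adjusted p of 0.033 by limma. The F5H-OE arrays, at 568, 780 and 529, also lay below WT, by 1.52 on the log2 scale (limma, adjusted p = 0.013). QQS in fah-1 was below F5H-OE by 1.32 (log2 difference -1.32, limma, adjusted p = 0.041). The call against WT ended without WT replicate 1, 2 or 3 (adjusted p = 0.383, 0.265 and 0.351) and without fah-1 replicate 2 (adjusted p = 0.101).

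**Figure D1:**
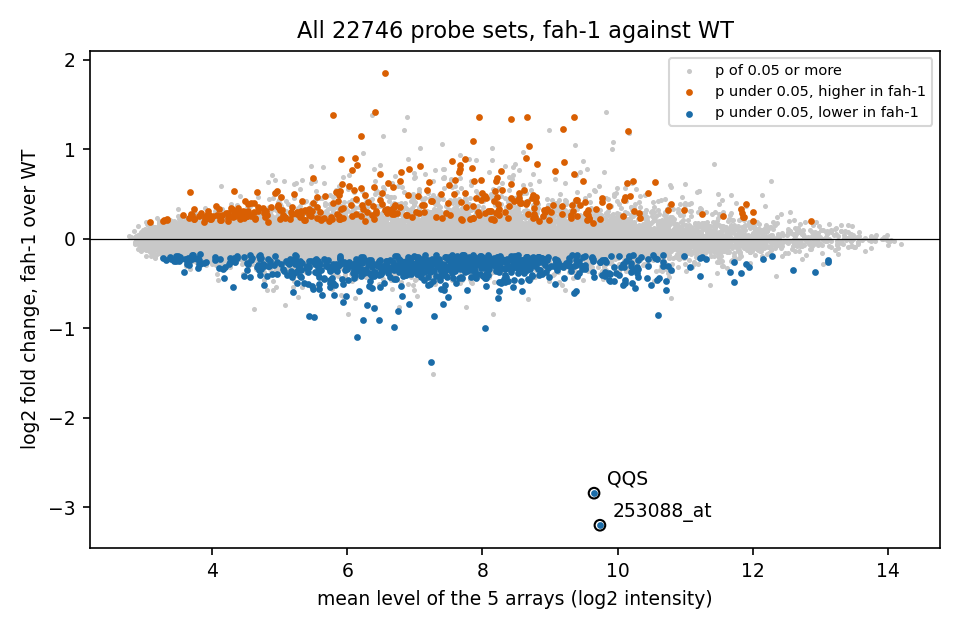
Each point is a probe set, with its mean level over the 5 arrays in log2 intensity on the horizontal axis and its log2 fold change, fah-1 over WT, on the vertical axis; colours mark probe sets at an unadjusted p under 0.05. 253088_at and QQS, at -3.20 and -2.84, stand apart below all others, and the blue points (794, lower in fah-1) outnumber the orange ones (348, higher).

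QQS belongs to a list of starch genes, of which 8 of 46 could be named. The others included APL3, a large subunit of ADP-glucose pyrophosphorylase, at 8.36 and 8.60 log2 intensity in fah-1 and 9.15, 8.63 and 8.93 in WT. Both fah-1 values lay below the WT values, by a narrow margin, and the log2 fold change was -0.42 ± 0.15. AT4G24450, of the glucan, water dikinase group that phosphorylates starch, had a log2 fold change of -0.43 ± 0.21, again with no overlap between groups. The starch branching enzyme SBE2.2 was at 0.07 ± 0.09, the disproportionating enzyme DPE1 at 0.03 ± 0.20 and the alpha-amylase AMY1 at -0.13 ± 0.19. The list's median was -0.05, close to that of all probe sets. QQS was the 1 member that passed the threshold, against 0.00749% of named genes. That share is QQS itself, 1 of 13356 named genes, and the list is given here because QQS belongs to it. The 2 figures therefore cannot show whether starch genes differ more often than others.

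Over the whole array the differences were small and ran more often downwards. At an unadjusted p under 0.05 there were 1142 probe sets, 5.02% of those tested, of which 348 (1.53%) were higher in fah-1 and 794 (3.49%) lower. The median log2 fold change of all probe sets was -0.02, with 43.5% above 0 and 56.5% below. The balance of the directions depended on the scaling. When each array was recentred on its median, 555 were higher and 496 lower, and when values were quantile normalized again, 468 were higher and 679 lower. Lower calls thus made up 69.5% of calls as deposited, 47.2% after recentring and 59.2% after renewed quantile normalization. Without fah-1 replicate 1 the counts were 182 higher and 388 lower, without fah-1 replicate 2 they were 281 and 498, without F5H-OE replicate 1 they were 667 and 1121, and in the fit of the 5 arrays alone they were 590 and 865.

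By size the order of the directions was the other way round. A difference of at least 0.5 on the log2 scale was measured at 205 probe sets higher in fah-1 and 93 lower. At least 1 was reached by 25 higher and 5 lower, and at least 2 by 0 higher and 2 lower. Differences under 0.5 were higher in fah-1 at 9679 probe sets and lower at 12769. That lean turned with the scaling, to 12067 higher and 10366 lower after recentring, and 10552 and 11886 after renewed quantile normalization. The lean of differences of 0.5 or more did not turn with the scaling, with 244 higher and 69 lower after recentring and 230 and 78 after renewed quantile normalization. These sizes were not counted again with arrays left out. All fah-1 values lay above all WT values at 8.58% of probe sets and below all of them at 14.9%. For the 13356 genes with a probe set of their own, on which the families below were counted, these shares were 8.6% and 13.9%, and 1.53% were higher and 2.99% lower at an unadjusted p under 0.05. Of these genes 43.9% had a fold change above 0 and 56.1% below.

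Among the named genes of smallest unadjusted p, 12 in each direction were taken, and of these 24 only QQS passed the threshold. AT2G15042 stood at 5.42 and 5.55 log2 intensity in fah-1, against 6.61, 6.61 and 6.53 in WT. Its groups were each within 0.2 of themselves and about 1 apart, and its log2 fold change was -1.096 ± 0.137 (limma, adjusted p = 0.281). In the fit of the 5 arrays alone its adjusted p was 0.042, below the threshold, and over all alternatives its log2 fold change ran from -1.16 to -1.03. In F5H-OE it was 1.24 below WT (log2 difference -1.24), and the fah-1 minus F5H-OE difference of 0.14 did not pass the test (limma, adjusted p = 0.676).

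Several of these genes separated fah-1 from F5H-OE as well as having a small p against WT. AT1G67510 was at 6.84 and 6.86 log2 intensity in fah-1 and at 7.33, 7.32 and 7.30 in WT, a log2 fold change of -0.46 ± 0.07. Its fah-1 minus F5H-OE difference was -0.83 (limma, adjusted p = 0.0013). AT5G58680 ran the other way, at 6.19 and 6.24 in fah-1 and 5.64, 5.77 and 5.61 in WT. Its log2 fold change was 0.54 ± 0.09 (limma, adjusted p = 0.598), and fah-1 lay 1.07 above F5H-OE (adjusted p = 0.0010). In both genes WT lay between the lines. AT5G44910 had a log2 fold change of -0.71 ± 0.11 and lay 0.77 above F5H-OE (limma, adjusted p = 0.013), so that for this gene fah-1 lay between F5H-OE and WT. AT5G42250, at 8.06 and 8.03 in fah-1 and 7.57, 7.53 and 7.51 in WT, lay 0.78 above F5H-OE (limma, adjusted p = 0.016). AT5G47530 had a log2 fold change of -0.65 ± 0.14 and a difference from F5H-OE of -0.89 (limma, adjusted p = 0.018). AT3G10320 had -0.51 ± 0.08 and -0.46 (limma, adjusted p = 0.035).

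The rest of the 24 had fold changes of like size that the test between the lines did not separate from F5H-OE, apart from BGLU33, described with the glucosidases. AT3G15760 was at 7.03 and 7.02 log2 intensity in fah-1, against 6.38, 6.49 and 6.48 in WT, and its log2 fold change of 0.58 ± 0.08 had the smallest unadjusted p of the upward genes (limma, adjusted p = 0.463). AT2G18480 had a log2 fold change of 0.90 ± 0.21 and AT1G05575 of 0.79 ± 0.18, the largest of the upward 12. AT4G14090 was at 5.54 and 5.65 in fah-1, against 6.39, 6.12 and 6.18 in WT, a log2 fold change of -0.64 ± 0.10. AT2G25735 (0.54), AT5G38290 (0.44), AT1G52510 (0.42), AT4G30670 (0.41), AT3G23880 (0.40), AT1G69523 (0.38) and AT5G66550 (0.37) made up the upward group. AT1G67870 (-0.48), AT5G64780 (-0.42), AT1G22610 (-0.40) and AT1G03040 (-0.40) made up the downward one. The values of fah-1 and WT did not overlap at any of the 24, which their selection by small p makes likely.

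**Figure D2:**
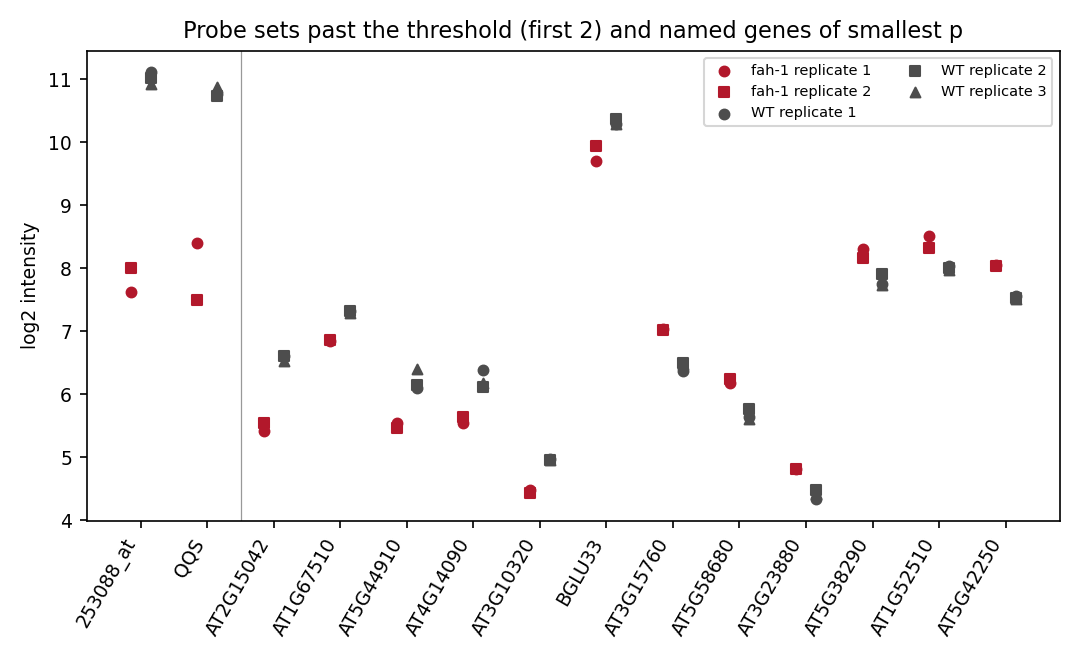
Log2 intensity (vertical axis) of each of the 2 fah-1 arrays (red, left) and 3 WT arrays (grey, right) for 253088_at and QQS, left of the line, and for the 6 named genes of smallest unadjusted p in each direction, QQS not repeated. The first pair differ by about 3 units between the groups, the other 12 by 0.397 to 1.096.

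None of the genes named for lignin formation itself passed the threshold. Of 26 symbols of the monolignol pathway 3 could be named. HCT, which passes p-coumaroyl groups to shikimate at the entry of the guaiacyl branch, was at 11.90 and 12.23 log2 intensity in fah-1, against 12.23, 11.88 and 11.99 in WT. These ranges coincide, and the log2 fold change was 0.03 ± 0.15. CCOAMT, a caffeoyl-CoA methyltransferase by its symbol, had 7.48 and 8.23 in fah-1 and 7.10, 7.36 and 7.80 in WT, a log2 fold change of 0.43 ± 0.40. CCR2, a cinnamoyl-CoA reductase, stayed dim at 5.40 to 5.51 in all 5 arrays, with a log2 fold change of -0.0040 ± 0.77, an error shared with the more variable F5H-OE arrays. None of the 3 reached an unadjusted p of 0.05, against 4.52% of named genes.

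Of 25 symbols for the coupling of monolignols into the polymer 6 could be named, all class III peroxidases, and none of these had an unadjusted p under 0.05. PRXR1, the brightest, was at 13.85 and 13.98 log2 intensity in fah-1 and 13.95, 13.94 and 13.85 in WT, a log2 fold change of -0.0014 ± 0.09. PRX72, a peroxidase whose loss lowers syringyl lignin, was at 4.53 and 4.51 in fah-1 and 3.78, 4.33 and 4.28 in WT. Both fah-1 values lay above the WT values at this low level, with a log2 fold change of 0.38 ± 0.17. PRX71 had 0.21 ± 0.59, PRX37 -0.04 ± 0.11, PRX52 -0.00020 ± 0.18 and PRX25 -0.34 ± 0.32. The median was -0.00082, and -0.0014 over the 7 named class III peroxidases.

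Sinapate metabolism lies downstream of F5H, and 15 of the 29 symbols listed for it could be named. Their median log2 fold change was -0.07, with 5 above 0 and 10 below, and it had the other sign when WT replicate 3 (0.037) or fah-1 replicate 1 (0.041) was left out. REF1 (ALDH2C4), the aldehyde dehydrogenase that oxidises coniferaldehyde and sinapaldehyde to ferulate and sinapate, was at 10.46 and 10.66 log2 intensity in fah-1, against 10.83, 10.82 and 10.95 in WT. Both fah-1 arrays lay below the WT arrays, with a log2 fold change of -0.31 ± 0.11 (limma, unadjusted p = 0.026, adjusted p = 0.951). REF1 was the 1 member of 15 under 0.05, against 4.52% of named genes. The glucosidases of the group that acts on monolignol glucosides differed in sign. BGLU45 was at 11.24 and 11.19 in fah-1 and 11.44, 11.25 and 11.37 in WT (-0.14 ± 0.17), and BGLU47 at 5.60 and 5.59 in fah-1 and 6.10, 5.78 and 5.86 in WT (-0.31 ± 0.17), both with no overlap. BGLU46 had a log2 fold change of 0.18 with overlap. Of the 15 genes, 3 lay below WT without overlap, against 13.9% of named genes.

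The glucosyltransferases that act on sinapate and monolignols were near 0. UGT84A1, of the group that makes sinapoylglucose, had a log2 fold change of 0.12 ± 0.12, UGT84A3 of -0.07 and UGT84A4 of -0.03. The monolignol glucosyltransferases UGT72E1, UGT72E2 and UGT72E3 had -0.10 ± 0.29, -0.02 ± 0.19 and 0.00 ± 0.15. UGT72B1, which glucosylates monolignols in the stem, was at 11.26 and 11.51 log2 intensity in fah-1, against 11.39, 11.22 and 11.20 in WT. Its log2 fold change was 0.12 ± 0.14, with overlap, although fah-1 and F5H-OE differed (limma, adjusted p = 0.0040). The acyltransferases SHT and SDT, which conjugate hydroxycinnamoyl groups to spermidine, had -0.07 and 0.03.

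The whole families that hold these enzymes had medians within 0.05 of 0. The 51 named UDP-glycosyltransferases had a median of -0.0068, 25 above 0 and 26 below, and 1 of them, UGT71B1 at -0.28 ± 0.12, was under 0.05 unadjusted. The upper end of the family was UGT76B1, which glucosylates isoleucic and salicylic acid, at 5.68 and 6.03 in fah-1 against 5.22, 5.17 and 5.57 in WT (0.53 ± 0.44). Serine carboxypeptidase-like proteins, the family of the acyltransferases that use sinapoylglucose, had a median of -0.0060 over 29 genes with none under 0.05, and SCPL34 (0.31 ± 0.14) came nearest. Of 22 beta-glucosidases, 8 were above 0 and 14 below, with a median of -0.04. Without overlap 3 lay below WT, near the 13.9% of all named genes, and none above, against 8.6%. BGLU33 alone was under 0.05, near the share of 4.52% of named genes. BGLU33 was at 9.70 and 9.93 log2 intensity in fah-1, against 10.29, 10.36 and 10.28 in WT. Both fah-1 values were below a tight WT group, with a log2 fold change of -0.49 ± 0.09 (limma, adjusted p = 0.898), and fah-1 minus F5H-OE was -0.50 (adjusted p = 0.032). Of 8 aldehyde dehydrogenases, 6 above 0 and 2 below with a median of 0.01, REF1 alone was under 0.05.

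Of 38 flavonoid and anthocyanin symbols 8 could be named, with 4 above 0, 4 below and a median of -0.04. 5MAT, which malonylates anthocyanins, was at 4.72 and 4.69 log2 intensity in fah-1, against 4.78, 4.98 and 5.09 in WT, a log2 fold change of -0.24 ± 0.11. It was the 1 of these 8 under 0.05 unadjusted, against 4.52% of named genes. Genes given by locus number alone were not counted in this list or among the UDP-glycosyltransferases. An example is AT4G14090, with a log2 fold change of -0.64 (limma, unadjusted p = 0.00025), so the counts of both sets leave it out. DFR, the dihydroflavonol reductase at the entry to anthocyanins, had 4.42 and 4.44 in fah-1 and 4.53, 4.82 and 4.56 in WT (-0.20 ± 0.12). Both genes had fah-1 values below all WT values, at a low level. They were 2 of the 8, against 13.9% of named genes. The flavonol glycosyltransferases UGT78D1, UGT78D2 and UGT78D3 had 0.13, -0.10 and -0.08.

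The named xylan genes lay below WT in fah-1 without passing the adjusted threshold. Of 39 symbols for secondary wall polysaccharides 3 could be named, all of xylan synthesis, and at each of them both fah-1 arrays lay below all WT arrays. IRX10, a xylan xylosyltransferase that extends the xylan backbone, was at 9.99 and 9.86 log2 intensity in fah-1, against 10.65, 10.41 and 10.35 in WT. Its log2 fold change was -0.55 ± 0.12 (limma, unadjusted p = 0.0019, adjusted p = 0.898), and fah-1 differed from F5H-OE (adjusted p = 0.038). IRX15, a DUF579 protein needed for xylan of normal length, was at 9.78 and 9.89 in fah-1 and 10.56, 10.17 and 10.18 in WT, a log2 fold change of -0.46 ± 0.15. Its relative IRX15-L, at 10.58 and 10.45 in fah-1 and 11.15, 10.79 and 10.62 in WT, had -0.34 ± 0.16. WT replicate 1 was the highest of the WT arrays for all 3, and IRX15-L in WT replicate 3 was within 0.1 of fah-1 replicate 1. The 3 genes averaged 0.42 and 0.47 below the WT mean in the fah-1 arrays (log2 deviations -0.42 and -0.47), against 0.24, -0.08 and -0.16 in the WT arrays. Over the alternatives IRX10 kept values from -0.61 to -0.46, IRX15 from -0.53 to -0.34 and IRX15-L from -0.46 to -0.19. No adjusted p of theirs passed in any of them. The median of the 3 was -0.46, against -0.02 for all probe sets, where 14.9% lay below WT without overlap.

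The other named wall genes of this kind were few. C3H14, a zinc finger factor that acts on secondary wall genes, had a log2 fold change of -0.18, and it was the 1 of 38 symbols of secondary wall transcription factors with a name. Trichome birefringence-like proteins, several of which acetylate xylan and other wall polymers, had a median of -0.07 over 23 genes, 7 above 0 and 16 below. TBL16 was at 6.66 and 6.64 log2 intensity in fah-1, against 6.98, 6.92 and 6.81 in WT, a log2 fold change of -0.25 ± 0.08. It was the 1 of 23 under 0.05 unadjusted, near the share of 4.52% of named genes. TBL19 had -0.54, TBL34 -0.37 and TBL45 -0.24, and TBL20 was the highest at 0.23. The family's median was -0.12 without WT replicate 3.

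A few genes of wall loosening and expansion lay above WT, none past the adjusted threshold. Xyloglucan endotransglucosylases, which cut and rejoin the xyloglucan chains between cellulose fibrils, had a median of 0.11 over 10 genes, 7 above 0 and 3 below. XTH16 was at 8.23 and 8.04 log2 intensity in fah-1, against 7.39, 7.23 and 7.44 in WT, with no overlap. Its log2 fold change was 0.78 ± 0.28 (limma, unadjusted p = 0.023, adjusted p = 0.951), the 1 of 10 under 0.05, against 4.52% of named genes. XTH33 was at 7.53 and 7.27 in fah-1 and 6.71, 6.42 and 7.03 in WT (0.68 ± 0.32), and XTH19 at 6.65 and 6.44 in fah-1 and 6.09, 5.79 and 6.14 in WT (0.53 ± 0.27). XTH32, at 0.18, was the last of 4 members with every fah-1 value above every WT value, against 8.6% of named genes. XTH18 had the widest values, 8.22 and 7.18 in fah-1 and 7.19, 5.10 and 6.73 in WT, and its log2 fold change of 1.36 ± 0.70 came with overlap. XTH20, XTH21, XTH26, XTH27 and XTH29 ranged from -0.11 to 0.05. Since the dim members were those near 0, the median moved to 0.61 over genes with a mean log2 intensity of at least 5. It was 0.18 without WT replicate 2.

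Expansins are proteins that loosen the contact of wall polymers. Over 19 genes the median was 0.06 (0.011 without WT replicate 1 and 0.023 without WT replicate 3), with 11 above 0 and 8 below. In each direction 1 was under 0.05 unadjusted, against 1.53% of named genes higher and 2.99% lower. The 3 expansin-like A genes were the 3 highest. EXLA2 was at 8.81 and 8.42 log2 intensity in fah-1, against 8.01, 7.71 and 8.09 in WT, a log2 fold change of 0.68 ± 0.17 (limma, unadjusted p = 0.0045, adjusted p = 0.898). EXLA1 had 10.98 and 10.07 in fah-1 and 9.76, 8.71 and 10.10 in WT (1.01 ± 0.71), and EXLA3 had 9.39 and 8.62 in fah-1 and 8.61, 7.75 and 8.37 in WT (0.76 ± 0.79). EXLA2 did not overlap between groups, EXLA3 barely separated and EXLA1 overlapped, and in all 3 fah-1 replicate 1 was the highest array and WT replicate 2 the lowest. The 10 alpha-expansins ran both ways, 4 above 0 and 6 below, from -0.45 to 0.22. EXPA9 was at 6.88 and 6.89 in fah-1, against 7.25, 7.09 and 7.27 in WT (-0.31 ± 0.09), and EXPA8 at 8.31 and 8.58 in fah-1 against 8.82, 9.12 and 8.76 in WT (-0.45 ± 0.29). At both of these the fah-1 values lay below all WT values, while EXPA21 (0.06 ± 0.09) lay above without overlap at a low level. The 4 beta-expansins had 0.04 to 0.21 and the 2 expansin-like B genes -0.16 and -0.01. Grouping by subfamily was done after the values were seen.

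No member of the remaining wall families was under 0.05 unadjusted. The 8 cellulose synthase-like genes had a median of 0.11, 6 above 0 and 2 below, with 0.051 without fah-1 replicate 1. CSLC4, a xyloglucan glucan synthase, was at 9.44 and 8.96 log2 intensity in fah-1 and 8.76, 8.85 and 8.87 in WT (0.38 ± 0.28), and CSLA03, of the glucomannan synthases, had 0.19 ± 0.09. The 15 endo-glucanases of family GH9 had a median of -0.01 and the 5 pectin methylesterases one of -0.06. COB, a GPI-anchored protein needed for oriented cellulose in primary walls, was level at 0.01 ± 0.10, and the 4 genes named on the primary wall list had a median of -0.06.

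**Figure D3:**
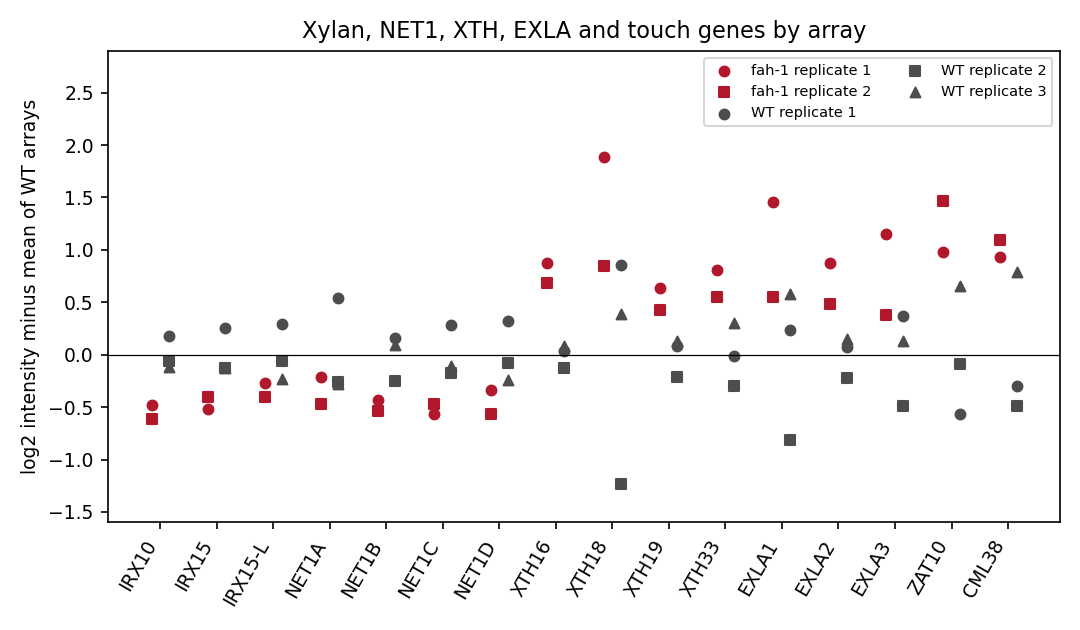
Log2 intensity minus the mean of the WT arrays (vertical axis) for 3 xylan genes, 4 NET1 genes, 4 xyloglucan endotransglucosylases, 3 expansin-like A genes and 2 touch genes, with fah-1 arrays in red on the left and WT arrays in grey on the right of each gene. The xylan and NET1 genes in fah-1 sit at least 0.2 units under the WT mean; ZAT10 and CML38 sit above it, with WT replicate 3 the WT array closest to fah-1.

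Among the families outside wall formation, the 10 with the widest medians are given next. NET proteins bind actin filaments to membranes such as the plasma membrane, the tonoplast and plasmodesmata. Their median was -0.22 over 10 genes, 2 above 0 and 8 below, and 2 were under 0.05 unadjusted, against 2.99% of named genes in that direction. NET1B was at 8.01 and 7.90 log2 intensity in fah-1, against 8.59, 8.19 and 8.53 in WT. Its log2 fold change was -0.48 ± 0.13 (limma, unadjusted p = 0.0072, adjusted p = 0.905), and fah-1 differed from F5H-OE (adjusted p = 0.028). NET1C was at 5.46 and 5.56 in fah-1 and 6.31, 5.85 and 5.92 in WT (-0.52 ± 0.22), and NET1D at 7.66 and 7.43 in fah-1 and 8.33, 7.92 and 7.76 in WT (-0.45 ± 0.28). NET1A, the founding member, found at plasmodesmata, had 5.12 and 4.87 in fah-1 and 5.88, 5.08 and 5.06 in WT (-0.34 ± 0.23). The first 3 of these did not overlap between groups, NET1A did, and WT replicate 1 was the highest array in all 4. Over the family 4 of 10 lay below WT and 1 above without overlap, against 13.9% and 8.6% of named genes. NET2D had -0.29, NET3A -0.16 and NET3C -0.10, and NET2C and NET3B were above 0, at 0.06 and 0.12. The family's median was -0.16 without WT replicate 1 and -0.38 without fah-1 replicate 1.

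Ubiquitin-specific proteases, which remove ubiquitin from proteins, had 10 of 12 members below 0 and a median of -0.16, with fold changes from -0.23 to 0.08. At 6 of the 12 every fah-1 value lay below every WT value, against 13.9% of named genes. UBP18 was at 7.38 and 7.44 log2 intensity in fah-1, against 7.60, 7.59 and 7.69 in WT (-0.22 ± 0.08). It was the 1 member under 0.05 unadjusted, against 4.52% of named genes. UBP15, which affects leaf and petal cell division, was at 7.61 and 7.58 in fah-1 and 7.94, 7.80 and 7.72 in WT (-0.23 ± 0.10). UBP24 (-0.23), UBP23 (-0.23), UBP25 (-0.22) and UBP22 (-0.08) also separated. The family's median was -0.12 when arrays were recentred on their medians and -0.096 without WT replicate 2. Subunits of the exocyst and other SEC proteins, which carry vesicles to membranes, likewise had 10 of 12 members below 0, but with a median of -0.08. At 3 of the 12 every fah-1 value lay below every WT value, against 13.9% of named genes. None was under 0.05, the nearest being SEC5A (-0.16 ± 0.09).

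IQ-domain proteins, calmodulin-binding scaffolds at microtubules, had a median of -0.09 over 15 genes, 9 of them below 0. IQD24 was at 5.99 and 6.33 log2 intensity in fah-1, against 6.86, 6.46 and 6.77 in WT (-0.54 ± 0.16, unadjusted p = 0.010 by limma). It was the 1 member under 0.05, against 4.52% of named genes. IQD22 was at 5.46 and 5.42 in fah-1 and 6.39, 5.90 and 5.72 in WT (-0.57 ± 0.37). Both separated, as did 2 further members, so that 4 of the 15 lay below WT without overlap, against 13.9% of named genes. The family's median was 0.0025 without fah-1 replicate 2, -0.045 without WT replicate 1 and -0.15 without WT replicate 3. The hormone list of gibberellin, brassinosteroid and cytokinin genes had 5 of 39 symbols with a name and a median of -0.16, which was -0.061 without WT replicate 3. The cytokinin response regulator ARR15 had -0.28 ± 0.24, and the gibberellin receptors GID1A, GID1B and GID1C had -0.16, -0.23 and 0.05, with none under 0.05.

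Touch and wound genes gave the highest median of the sets with at least 5 genes, 0.31, over 5 of 43 symbols with a name, and all 5 lay above 0. The median was 0.50 without WT replicate 3 and 0.21 without WT replicate 1. ZAT10, a zinc finger repressor induced by many stresses, was at 9.69 and 10.18 log2 intensity in fah-1, against 8.14, 8.62 and 9.36 in WT. Its log2 fold change was 1.22 ± 0.37 (limma, unadjusted p = 0.010, adjusted p = 0.928), the 1 member under 0.05, against 4.52% of named genes. CML38, a calmodulin-like protein induced by wounding and low oxygen, was at 7.60 and 7.77 in fah-1 and 6.37, 6.18 and 7.46 in WT (1.01 ± 0.79). Neither overlapped, but WT replicate 3 came within 0.4 of fah-1 for both, well above the other WT arrays. WRKY53, a senescence factor, was at 7.40 and 7.55 in fah-1 and 6.964, 6.999 and 7.542 in WT (0.31 ± 0.25), again with WT replicate 3 at the fah-1 level. CML37 and CML39 had 0.17 and 0.01. The mean deviation of the 5 genes was 0.42 and 0.67 in the fah-1 arrays and -0.28, -0.15 and 0.43 in the WT arrays, so that WT replicate 3 lay at the level of fah-1 replicate 1.

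WRKY transcription factors named by number, many of them defence regulators, had a median of 0.20 over 7 genes, 5 above 0. This family also counts WRKY53 of the touch and wound list, and the calmodulin-like family below counts CML38 of that list. These sets are therefore not separate. WRKY22 was at 6.06 and 6.28 log2 intensity in fah-1, against 5.90, 5.15 and 5.87 in WT (0.53 ± 0.34), and WRKY6 had 0.33 ± 0.16. WRKY1 ran downwards, at 8.58 and 8.50 in fah-1 and 8.72, 8.78 and 8.73 in WT (-0.20 ± 0.08). It was the 1 of 7 under 0.05 unadjusted, against 4.52% of named genes. In the brighter 50% of probe sets the family's median was -0.16, so its sign rested on the dimmer members. That median was 0.073 without WT replicate 2, 0.31 without WT replicate 3 and 0.12 without fah-1 replicate 2. Calmodulin-like proteins had a median of 0.12 over 8 genes, 7 above 0 and none under 0.05, with CML38 at the top and CML30 at the bottom (-0.30 ± 0.15). That median was 0.035 without WT replicate 1, 0.057 without fah-1 replicate 2 and 0.22 without fah-1 replicate 1. Tau-class glutathione S-transferases, which conjugate glutathione to reactive compounds, had 0.09 over 11 genes, with GSTU16 at 0.20 ± 0.10, and the median was 0.048 without WT replicate 1 and 0.050 without fah-1 replicate 2. The plant U-box ubiquitin ligases had 0.09 over 9 genes, with PUB24, a brake on immune signalling, at 0.35 ± 0.21. Their median ranged from 0.020 without WT replicate 1 to 0.16 without WT replicate 2. Neither family had a member under 0.05.

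**Figure D4:**
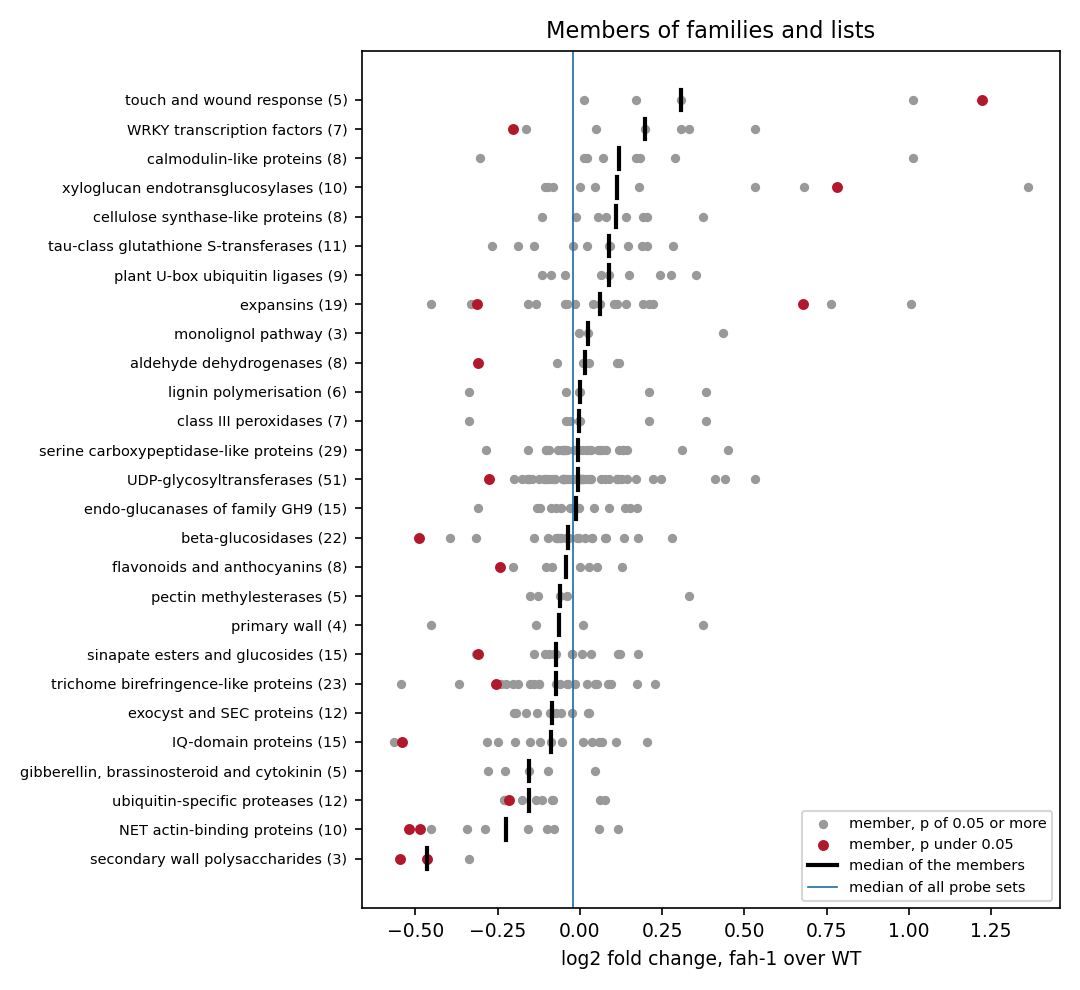
Log2 fold change, fah-1 over WT (horizontal axis), of each named member of the families and lists described that have at least 3 genes, with the number of genes in parentheses; red points have an unadjusted p under 0.05, the black bar is the median and the blue line the median of all probe sets, -0.02. Medians run from -0.46 for the 3 xylan genes to 0.31 for the touch and wound genes, and most families spread on both sides of 0.

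The other 32 families and lists with at least 5 genes, of 5 to 41 genes each, had medians from -0.08 to 0.06. They covered plastid and mitochondrial genes, transporters, peptides, transcription factors, proteases, chromatin ATPases and vesicle proteins. Over all families and lists 702 genes were counted, of which 34 (4.84%) were under 0.05 unadjusted, 13 higher and 21 lower, a share close to the 4.52% of all named genes. Among the 702, QQS alone passed the adjusted threshold.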

How the data were processed

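RNA of 8 stem pools was measured on 1-colour Affymetrix arrays. The deposited values were intensity per probe set on a linear scale, per the series value table; the submitters' processing notes name RMA without a version. Since RMA equalises array distributions, a shift of most transcripts one way would not show. Log2 was taken with no pseudocount; 64 control probe sets were left out. Group means of all 8 arrays were fitted with limma 3.58.1 in R 4.3.3 (lmFit, eBayes, 2-sided), and Benjamini-Hochberg adjustment ran over 22746 probe sets (threshold 0.05). Unadjusted p, SE and adjusted p are limma's; SDs are between arrays. The fit was tested on simulated data.

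Names came from the platform annotation through gene identifiers of a TAIR10.1 table. Of the probe sets 13513 had 1 gene, 503 several and 8730 were unlisted; 13436 matched, giving 13356 genes, each by its brightest probe set. The 48 families were formed by symbol stems, the 30 lists by symbols. Members and lists were chosen with earlier results of these data known, so no list was tested. Named were all probe sets past the threshold, the 12 named genes of smallest p in each direction, and up to 4 members of smallest p in each family described; other members were named after their values were seen. The families described were those of lignin, sinapate, flavonoid and wall genes plus the 10 others with at least 5 genes and the widest medians. The labels call samples biological replicates; fah-1 had 2 arrays here, while the series text mentions 3 replicates.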

Additional observations from a re-analysis of the deposited data

How the results depend on the processing

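The number of fah-1 arrays, 2, limits the precision, and no cutoff for detection was applied, so low values may hold background. A fah-1 array left alone in its group was taken to have the spread of the rest. The 253088_at call held under all 15 alternatives it was fitted under (adjusted p 1.7e-05 to 0.0037), with a log2 fold change of -3.39 to -3.01; QQS kept its direction in all 15 (-3.29 to -2.40, adjusted p 0.012 to 0.383) and lost its call in 6. These were a robust spread (adjusted p 0.056, leaving 1 probe set past the threshold), the replicate block (0.218) and the 4 single-array omissions given with QQS; leaving out arrays gave 1 to 2 probe sets. The replicate number was not taken to pair fah-1 and WT, whose same-numbered arrays had deviations from group means correlating at -0.06 and -0.03; with 2 fah-1 arrays these are mirror images and say little. Between WT and F5H-OE the same-numbered values were 0.17, 0.33 and -0.02, and the differently numbered ones ran from -0.25 to 0.05. In that fit with the replicate block 3 probe sets passed, 253088_at (lower), AT4G27280 (log2 fold change 1.74) and the unnamed 260904_at (1.50), both higher. At an unadjusted p under 0.05 the higher and lower counts were 162 and 516 in the brighter 50% of probe sets and 701 and 1518 with array weights; the fit of the 5 arrays alone had 590 higher, recentring 555 and 496, and leaving out arrays gave 182 to 667 and 388 to 1121. Causes were not tested beyond the arrays or genes each setting leaves out.

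Medians moved by more than the spread between arrays as follows. Recentring gave -0.0038 for beta-glucosidases, -0.040 for trichome birefringence-like proteins, 0.14 for cellulose synthase-like proteins, -0.12 for ubiquitin-specific proteases and 0.12 for glutathione S-transferases. The block gave -0.11 for trichome birefringence-like proteins and -0.21 for ubiquitin-specific proteases. A mean log2 of at least 5 gave -0.070 for beta-glucosidases, 0.61 for xyloglucan endotransglucosylases, 0.13 for expansins, -0.056 for GH9 endo-glucanases, 0.14 for cellulose synthase-like proteins, 1.01 for touch and wound genes and 0.12 for glutathione S-transferases. The brighter 50% gave 0.23 for the monolignol pathway, 0.11 for lignin polymerisation and for peroxidases, -0.071 for beta-glucosidases, 0.48 for xyloglucan endotransglucosylases, 0.21 for expansins, -0.056 for GH9 endo-glucanases, 0.079 for cellulose synthase-like proteins, 1.01 for touch and wound genes, -0.45 for NET proteins, -0.16 for WRKY factors, -0.22 for ubiquitin-specific proteases and 0.15 for glutathione S-transferases. Leaving out arrays gave -0.15 to 0.0025 for IQ-domain proteins, -0.38 to -0.16 for NET proteins, -0.054 to -0.016 for beta-glucosidases, 0.051 to 0.16 for cellulose synthase-like proteins, -0.066 to 0.022 for peroxidases, 0.011 to 0.079 for expansins, -0.17 to -0.061 for the gibberellin, brassinosteroid and cytokinin list, -0.018 to 0.19 for the monolignol pathway, -0.10 to -0.027 for pectin methylesterases, -0.17 to 0.022 for the primary wall, 0.048 to 0.089 for glutathione S-transferases, -0.12 to -0.055 for trichome birefringence-like proteins and -0.19 to -0.096 for ubiquitin-specific proteases. The medians of 12 of the 28 families and lists had the other sign in at least 1 setting. Of these only the WRKY factors (brighter 50%) and IQ-domain proteins (without fah-1 replicate 2) had a median further than 0.08 from 0.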

Other observations

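Some lists outside lignin and wall formation had under 5 named genes, and their values are given here. The 4 named genes of senescence and sugar starvation had log2 fold changes of 0.17 to 0.33, all above 0, with a mean deviation of 0.21 and 0.32 in the fah-1 arrays and -0.16, -0.04 and 0.20 in the WT arrays. The 2 named genes of salicylic acid defence had 0.27 and 0.73. WT replicate 3 was the highest WT array for both lists, as it was for the touch and wound genes. These lists share members, so they are not separate observations. WRKY53 is in both the senescence and the touch list, and the salicylic acid gene at 0.27 is also in the senescence list. The 3 named heat shock genes had -0.10 to -0.04 and the 1 named clock gene -0.22. The lists of glucosinolates, of abscisic acid, drought and cold, and of reactive oxygen and glutathione had 4 named genes each, with medians of -0.02, 0.03 and -0.0053.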
